A study of Mus musculus with 8 samples.

Results

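The cells described here are macrophages of the mouse posterior eye that carry Lyve1, Csf1r and at least 1 of Folr2, Cd163 and Cbr2. They were chosen by transcript counts in the CITE-seq data of a laser injury study, in which RNA and antibody-derived tags (ADTs, DNA barcodes on antibodies) are counted in the same cell. A cell was a member when it held at least 1 unique molecular identifier (UMI, 1 counted molecule) of Lyve1, at least 1 of Csf1r and at least 1 of Folr2, Cd163 or Cbr2. It also had to have fewer than 2 of the microglia transcripts Tmem119, P2ry12 and Sall1, and 0 UMIs of Cd3e and Cd79a, which mark T cells and B cells. This rule found 476 members among 11223 cells of adequate quality, or 4.24% of all cells in the 4 libraries. The levels of these genes in the members follow from the choice and are given as a description.

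Each of the 4 groups was 1 library of CD45+ cells sorted from pooled posterior eye cups of female mice aged 10 to 12 weeks. WT control and Nr4a1-/- control were unlasered pools of 22 mice each, which the labels call sham. WT laser and Nr4a1-/- laser were pools of 11 to 12 mice each on day 3 after 8 laser burns per eye, a model of choroidal neovascularization. The Nr4a1-/- mice lack the nuclear receptor NR4A1 in every cell that would make it, and non-classical monocytes depend on this receptor. The labels give C57BL/6J as the strain of all groups, whereas the study's methods name the stock B6;129S2-Nr4a1tm1Jmi/J, so strain background cannot be told apart from genotype. The number that the labels give the library of Nr4a1-/- control comes from a different series of numbers than those of the other 3 libraries, and a batch cannot be told apart from any difference that involves it. With 1 library per group there is no replicate of any condition. Values for single libraries therefore stand with exact 95% intervals that cover counting error only, and no p-value was computed between conditions.

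Tissue-resident macrophages that carry LYVE1, a receptor for hyaluronan shared with lymphatic endothelium, sit along vessels in many organs, the choroid and sclera included. They usually also carry the folate receptor FOLR2, the haemoglobin scavenger receptor CD163 and the mannose receptor CD206 (Mrc1), and they clear debris, macromolecules and dying cells. Microglia, the macrophages of the neural retina, lack this program and carry Tmem119, P2ry12 and Sall1. After injury, classical monocytes enter the eye and become macrophages, which makes resident and recruited cells worth telling apart.

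The gate genes had these positions and levels. Lyve1 (chr7:110850607-110863239, mm10) was present at 907, 544, 905 and 722 CPM (UMIs scaled to 1e6 UMIs of the members) in WT eyes (control, then laser) and in Nr4a1-/- eyes (control, then laser), and sets of 4 values keep this order from here on. Folr2 (chr7:101839988-101857194) had 682, 811, 623 and 833 CPM, and Cd163 (chr6:124304656-124330527) had 534, 529, 661 and 503 CPM. Cbr2, a carbonyl reductase gene (chr11:120729489-120732114), had 300.2, 428, 322 and 447 CPM. Folr2 was detected in 82.5%, 93.0%, 82.4% and 92.4% of members, Cd163 in 80.4%, 78.9%, 87.3% and 72.7%, and Cbr2 in 69.1%, 80.7%, 65.7% and 69.7%. All 3 partners of Lyve1 were found together in 258 members, 2 of them in 141 and 1 in 77. A single Lyve1 UMI carried 80 members over the threshold, and the median member held 5, 4, 6 and 3 Lyve1 UMIs. Just outside the rule stood 33 cells with Lyve1 and none of the partners, 24 with Lyve1 and Cd3e or Cd79a, 15 with Lyve1 but no Csf1r and 7 with Lyve1 and the microglia transcripts. A larger group of 733 Csf1r-positive cells had a partner gene but no Lyve1 UMI. Their median Mrc1 count was 7, 8, 5 and 5 UMIs per cell, against 15, 15, 16 and 8 in all cells with any Lyve1, and these cells were not counted as members.

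Markers that the rule did not use matched the label. Mrc1 stood at 2550.4, 2099.7, 2411 and 2258 CPM and was detected in 193, 114, 102 and 66 of the 194, 114, 102 and 66 members. F13a1, which encodes coagulation factor XIII A, was found in the same numbers of members at 2362, 2191, 2093 and 2495 CPM. The lists of other cell types ranged widely in their sums. The list for monocyte-derived macrophages (MDM-A and MDM-B), which the study defined on these libraries, summed to 84.3, 316, 164 and 2786 CPM, and in the last library 2181 CPM of it was Spp1, nearly all from 1 cell. The dendritic cell list summed to 49 to 175 CPM and the T and NK cell list to 5.82 to 169 CPM. The endothelial list summed to 11.1 to 24.1 CPM, the fibroblast list to 0 to 16 and the melanocyte list to 0 to 6.98 CPM. The lymphatic endothelial list summed to 33.2 to 63.8 CPM, and the 7 classical monocyte markers to 84.9 to 222 CPM. The microglia list, part of which the rule limits, summed to 1011 to 1419 CPM in members, against 5781 to 9030 CPM in the microglia described below. Of the 476 members 212 carried 1 of Tmem119, P2ry12 and Sall1, which the rule allows. B cell markers summed to 200.2 to 244 CPM, nearly all of it Ighm. The neutrophil list summed to 752, 193, 94.3 and 72.2 CPM, and 1 WT control cell held 90.0% of the S100a8 UMIs behind the first value.

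The members held 1625621, 1285902, 859341 and 359981 RNA UMIs, and the median member held 8051, 10909, 7915.5 and 5302. The Nr4a1-/- laser library was the shallowest and had the fewest members. A pair of libraries shared 1 to 7 barcodes, and 0 of these were members in both. Nr4a1 itself (chr15:101254269-101274795), the gene targeted in the knockout, had 195, 232, 46.5 and 25 CPM in the members. Its ratio of Nr4a1-/- to WT was 0.239 (0.167 to 0.332) in controls and 0.108 (0.0489 to 0.208) after laser, with 95% intervals in parentheses here and below. UMIs of the gene were still counted in the knockout, and whether the counted transcript ends lie outside the targeted part was not tested.

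Members made up a smaller part of the sorted cells after laser in WT eyes. They were 194 of 3763 cells in WT control (5.16%, 95% interval 4.47 to 5.91) and 114 of 3791 in WT laser (3.01%, 2.49 to 3.6). In Nr4a1-/- mice they were 102 of 2020 control cells (5.05%, 4.14 to 6.10) and 66 of 1649 cells after laser (4.002%, 3.11 to 5.06). The ratio of laser to control was 0.583 (0.459 to 0.739) in WT and 0.793 (0.573 to 1.09) in Nr4a1-/-, where the interval includes 1. The 2 control libraries had nearly the same share, with a ratio of Nr4a1-/- to WT of 0.979 (0.763 to 1.25), and after laser this ratio was 1.33 (0.968 to 1.82).

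Among Csf1r-positive cells without lymphoid transcripts the members fell from 14.8% (12.9 to 16.8) to 6.33% (5.25 to 7.55) in WT and from 14.6% (12.1 to 17.5) to 9.82% (7.68 to 12.3) in Nr4a1-/-. The ratios of laser to control were 0.429 (0.337 to 0.543) and 0.672 (0.485 to 0.925). After laser the share in Nr4a1-/- was 1.55 times (1.13 to 2.12) that in WT. Over the same groups the Lyve1-negative macrophages, gated on Csf1r, Mertk and C1qa, numbered 105, 392, 59 and 128. Fewer resident macrophages and more other cells in a sort cannot be told apart from these shares. The order of the Nr4a1-/- pair turned in an alternative setting. Cells of at least 2000 UMIs were thinned to 2000 before the gate, and shallower cells were left out of members and totals. The ratio of laser to control was then 1.14 in Nr4a1-/-, and the ratio of Nr4a1-/- to WT after laser was 2.18. The part of the shallower cells in these ratios was not tested.

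**Figure D1:**
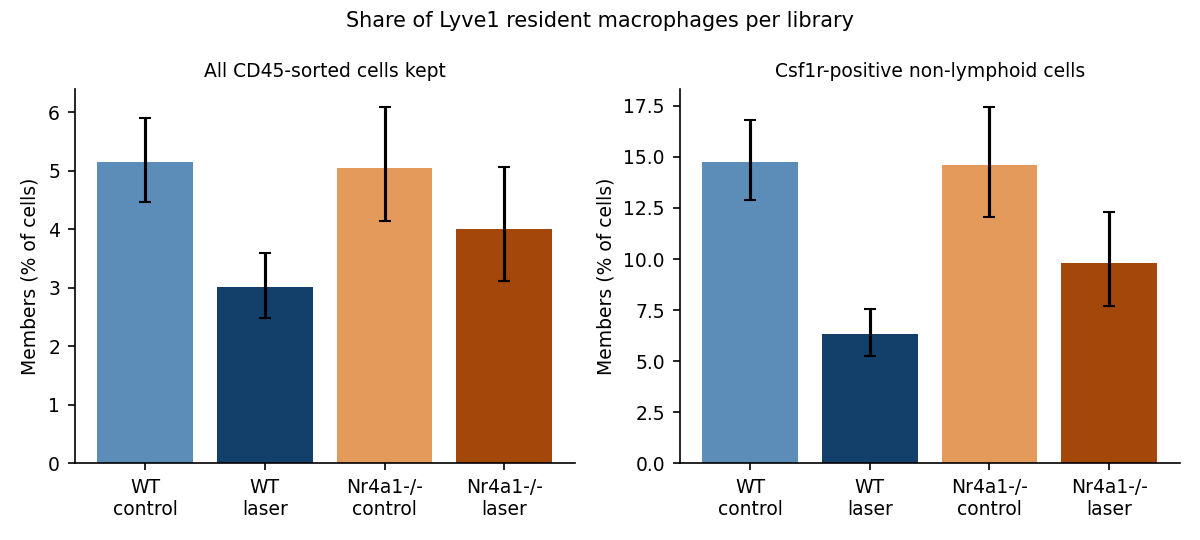
Members as a percentage of all kept cells and of Csf1r-positive non-lymphoid cells in the 4 libraries, with exact 95% intervals for counting error as bars. WT control and Nr4a1-/- control sit near 5.16% and 5.05% of all cells, and both laser libraries sit lower, at 3.01% and 4.002%.

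To see what set these cells apart, the summed RNA of the members was compared within each library with that of 684 Lyve1-negative macrophages and of 904 microglia (Csf1r-positive cells with at least 2 of the microglia transcripts). A gene was called when all 4 libraries had it at least 2-fold higher, or all 4 at least 2-fold lower, with 20 or more UMIs in the higher class of each. By this rule 83 of 4814 genes were higher than in Lyve1-negative macrophages (1.72%) and 71 lower (1.47%). Over microglia 287 of 4457 genes were higher (6.44%) and 332 lower (7.45%). The gate chose the members on the same transcripts, so these counts describe the class and are no test. Counts over the gene lists below stand beside these shares.

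Cd209f, Cd209g, Timd4 and Fcna were among the genes higher in the members. Of 13 efferocytosis genes compared with Lyve1-negative macrophages, 2 were higher (Gas6 and Timd4) and 1 was lower (Tgm2). Cd209f and Cd209g, which encode C-type lectins of the DC-SIGN family, had 159, 182, 145 and 364 and 62.7, 62.2, 73.3 and 136 CPM, against 1.47 to 10.3 and 0 to 1.26 CPM in Lyve1-negative macrophages. Timd4 encodes TIM-4, a receptor for phosphatidylserine on dying cells. It stood at 167, 101, 116 and 186 CPM in members, 14.7, 4.63, 5.44 and 5.14 CPM in Lyve1-negative macrophages and 0.384, 3.7, 0.653 and 3.75 CPM in microglia, and the ranges did not overlap. Fcna, which encodes the complement-activating lectin ficolin A, stood at 220.2, 261, 205 and 358 CPM against 8.58, 22.3, 8.16 and 38.6 CPM.

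Ednrb, the endothelin receptor type B gene, had 549.9, 529, 609 and 794 CPM in members, 87, 98.7, 32.6 and 34.7 CPM in Lyve1-negative macrophages and 0 to 5.63 CPM in microglia. Egfr had 79.4, 65.3, 71 and 61.1 CPM in members and 0 to 3.79 CPM in Lyve1-negative macrophages. Fgfr1 had 167, 121, 128 and 167 CPM against 13.5, 16.4, 13.6 and 11.6 CPM. The transferrin receptor gene Tfrc (88.4 to 101 CPM against 12.9 to 19.987), the neonatal Fc receptor gene Fcgrt (375 to 561 against 50.3 to 97.4) and the dynamin gene Dnm1 (37.3 to 58.3 against 1.23 to 5.44) were also among the 15 genes with the largest smallest change, together with Fxyd2, Plekhg5, Rcn3, Chp2 and the chemokine gene Ccl8.

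Of the tags apart from those of the gate, Tim-4 had the largest difference in both comparisons described further on, and Ccl8 was called after laser in every setting tried, so the 250 bases before their start sites are shown (RefSeq, GRCm38.p6, plus strand for both). Capitals mark TGCTGA or its reverse complement, the core of the half-site read by MAF family factors.
Timd4, chr11:46810549-46810798: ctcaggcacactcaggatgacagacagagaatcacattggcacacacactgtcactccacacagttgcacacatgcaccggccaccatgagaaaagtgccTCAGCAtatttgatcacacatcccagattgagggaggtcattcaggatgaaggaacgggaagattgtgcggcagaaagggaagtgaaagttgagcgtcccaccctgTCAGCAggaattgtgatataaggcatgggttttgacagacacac
Ccl8, chr11:82114935-82115184: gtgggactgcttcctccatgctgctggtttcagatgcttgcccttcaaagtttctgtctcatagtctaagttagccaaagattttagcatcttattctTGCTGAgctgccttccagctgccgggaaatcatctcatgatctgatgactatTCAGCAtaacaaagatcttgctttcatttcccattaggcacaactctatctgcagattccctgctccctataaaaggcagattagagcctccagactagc
Each held 2 matches, which began 150 and 44 bases before the Timd4 start and 152 and 100 bases before the Ccl8 start. Among the genes higher than in Lyve1-negative macrophages 59 of 83 had a promoter in the table and 10 of these held the half-site (16.9%), against 13.8% of 3855 promoters of all genes compared. Of these 10 genes 2 were the gate genes Cbr2 and Folr2, whose transcripts chose the members. The difference between the shares therefore cannot show an excess of the half-site among the other genes. The counted window also reached past the start, and the matches of Cbr2 and Mctp1 began 41 and 38 bases after it. A match of 6 letters is a description of the sequence and no sign of binding. Maf itself had 840.3, 1017, 954 and 947 CPM in members and 332, 463, 479 and 288 CPM in Lyve1-negative macrophages.

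A list of resident macrophage genes set the members apart from both other classes. Of 25 genes compared, 18 were higher than in Lyve1-negative macrophages and 0 lower, and of 24 compared with microglia 20 were higher and 0 lower. The platelet factor 4 gene Pf4 stood at 2582, 2249, 3244 and 2297 CPM against 696, 752, 647 and 761 CPM. Gas6, a bridge between dying cells and MERTK, stood at 442, 484, 513 and 603 CPM against 179, 112, 207 and 91.3 CPM. Selenop, which encodes a selenium carrier, stood at 2361, 2843, 2263 and 3119.6 CPM against 809, 1401, 829.7 and 994 CPM. Of 15 scavenger and endocytic receptor genes 11 were compared, and 5 were higher (Cd209f, Cd209g, Clec10a, Colec12 and Mrc1). Among 14 transcription factor genes compared, Klf4 was higher at 1549.6, 1655, 1202 and 1258 CPM against 322, 750.3, 473 and 553 CPM, and Runx3 was lower.

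Genes of complement were partly higher. C4b, which encodes component C4, had 304, 428, 201 and 333 CPM against 35.6, 38.1, 46.2 and 20.6 CPM in Lyve1-negative macrophages. C4b and the factor B gene Cfb were among the 3 of 10 complement genes called higher, against 1.72% of all genes compared. C1qa was not called, at 3596 to 4188 CPM in members and 3358 to 4195 in microglia. Lyve1-negative macrophages, whose gate requires C1qa, had less of it, at 2616 to 3009 CPM. Chemokine genes were higher in 4 of 14 cases (Ccl24, Ccl7, Ccl8 and Pf4) and growth factor genes in 3 of 13 (Hbegf, Pdgfc and Lyve1, which is a gate gene), beside the same 1.72% of all genes. MHC class II genes were called in 0 of 8 cases, with H2-Aa at 1566, 1943, 1554 and 1708 CPM in members and 2328, 2969, 2043 and 1999 CPM in Lyve1-negative macrophages.

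Genes of lipid-laden and lysosomal macrophages differed in both directions. Of 14 compared, 5 were lower than in Lyve1-negative macrophages (Cd9, Fabp5, Gpnmb, Lgals3 and Trem2) and 1 was higher (Pltp). The list for MDM-A and MDM-B summed to 703, 8366, 392 and 10215 CPM in Lyve1-negative macrophages, more than in members in each library. The part of monocyte-derived cells in these differences was not tested. Over all genes compared with Lyve1-negative macrophages 1.47% were lower and 1.72% higher. Over microglia 4 of 15 were higher (Abca1, Apoe, Cd36 and Pltp) and 2 lower (Cd9 and Trem2), against 6.44% and 7.45% of all genes compared. Trem2, a lipid-sensing receptor gene, had 132, 212, 180.4 and 242 CPM against 449.9, 621, 454 and 614 CPM. Lgals3, which encodes galectin-3, had 207, 489, 144 and 756 CPM against 679, 2398, 370.0 and 1826 CPM. Pltp, the phospholipid transfer protein gene, went the other way at 618, 1121, 559 and 997 CPM against 195, 518, 226 and 322 CPM. Among the 10 genes with the largest deficit against Lyve1-negative macrophages, Sparc had 6.77, 4.67, 14 and 11.1 CPM in members, 235, 111, 141 and 251 CPM in Lyve1-negative macrophages and 1388, 1245, 1513 and 946 CPM in microglia. Apbb2, Cacnb2, Atp8a2, Arhgap24, Nav3, Arl5c, Nav2, Gpr84 and Olfml3 followed the same order of the 3 classes in the control libraries. The gate for Lyve1-negative macrophages allows 1 microglia transcript per cell, and the part of such cells in these 10 lower genes was not tested.

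**Figure D2:**
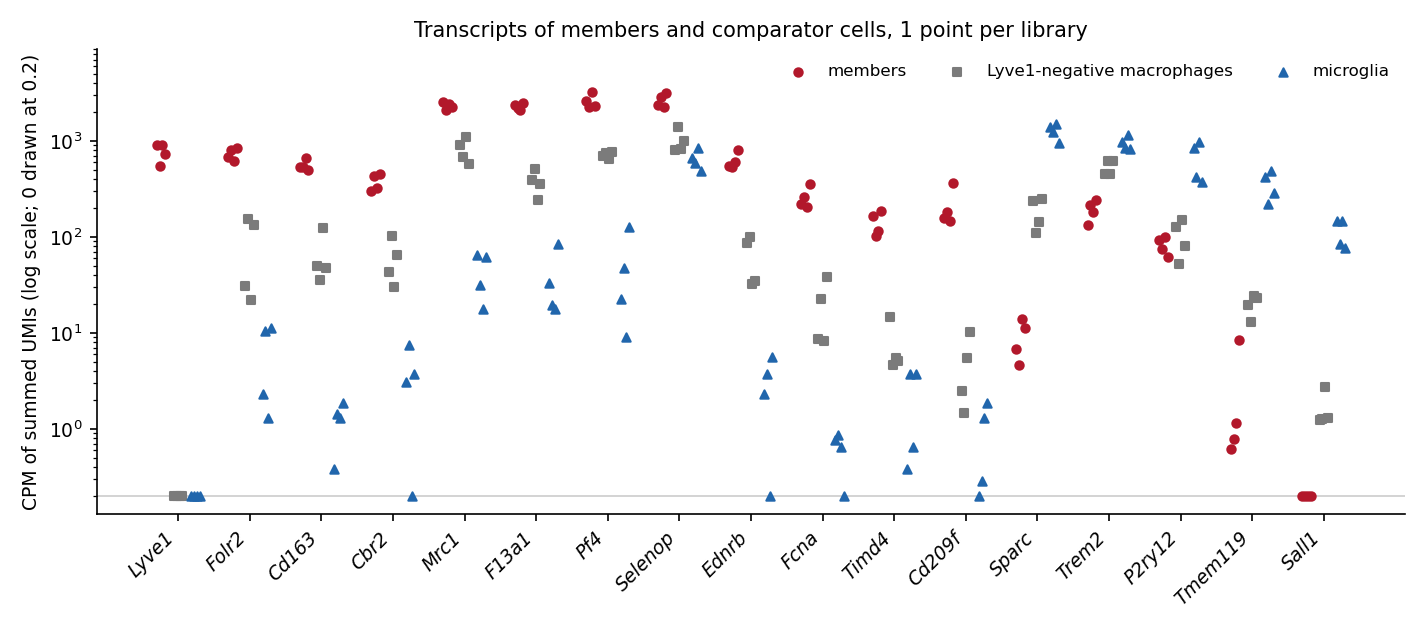
Levels of gate genes, resident macrophage genes and microglia genes in CPM on a log scale, with 1 point per library for members, Lyve1-negative macrophages and microglia, and levels of 0 drawn on the line at the bottom. From Mrc1 to Cd209f all member points lie above those of the other classes, and for Sparc and Trem2 they lie below.

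The members were not uniform. After each cell was thinned to 2000 UMIs, Timd4 was detected in 22.9, 15.8, 18.6 and 25.8% of members (41.2 to 53.1% before thinning), against 0 to 1.25% of B cells, which should lack it. H2-Aa was detected in 53.6, 61.4, 49 and 50% of members, so that the members divided into those with and without this MHC class II transcript. B cells make MHC class II themselves and give no background for it. Cd209f was detected in 12.5, 14.9, 14.7 and 17.7% of members and in 0 of 80 to 705 thinned B cells per library, which allows shares of up to 0.426% to 3.75%. Mrc1 and F13a1 were near uniform, at 95.8, 91.2, 96.1 and 96.8% and 92.2, 93, 92.2 and 91.9% of members. Ccr2, the chemokine receptor of classical monocytes, was found in 5.73, 10.5, 5.88 and 12.9% against 0.299 to 2.5% of B cells, and the dendritic cell integrin gene Itgax in 1, 0, 0 and 0 of the thinned members (upper 95% bounds 2.87%, 3.18%, 3.55% and 5.78%).

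Across single members the MHC class II genes varied together. Within each library of 62 to 192 thinned members, Spearman's rho was 0.82 to 0.87 between H2-Aa and Cd74 and 0.81 to 0.88 between H2-Aa and H2-Ab1. Cd209f and Cd209g followed each other with rho 0.47 to 0.64. Lyve1 and H2-Aa were hardly related, with rho from -0.24 to 0.03, and for Timd4 and H2-Aa rho ran from -0.07 to 0.10. The cells of 1 library share their depth and free RNA, so these values are descriptions without a p-value.

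The antibody tags gave a second measurement of the same cells. Members with an H2-Aa transcript held a median of 97.5, 92, 65 and 68 I-A/I-E tags per cell, whereas members without one held 3.5, 11.5, 4 and 4.5, and rho between transcript and tag was 0.79 to 0.86. The difference by H2-Aa transcript, here split without thinning, was therefore also present in protein. Whether the members form separate groups or a gradient was not tested. Timd4 transcript and Tim-4 tag had a rho of 0.40 to 0.54, with medians of 11, 10, 12 and 3 tags in members with the transcript and 2, 1, 2.5 and 1 in members without. For the gate gene Folr2 the FrB (folate receptor beta) tag had medians of 184.5, 73, 145 and 28 with and 9.5, 4.5, 5.5 and 2 without the transcript, and rho was 0.37 to 0.70. Cd163 and its tag had a rho of 0.53 to 0.70. Links were weaker for Cx3cr1 (0.27 to 0.35), Siglec1 (0.17 to 0.25) and Itgam with CD11b (0.12 to 0.29).

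**Figure D3:**
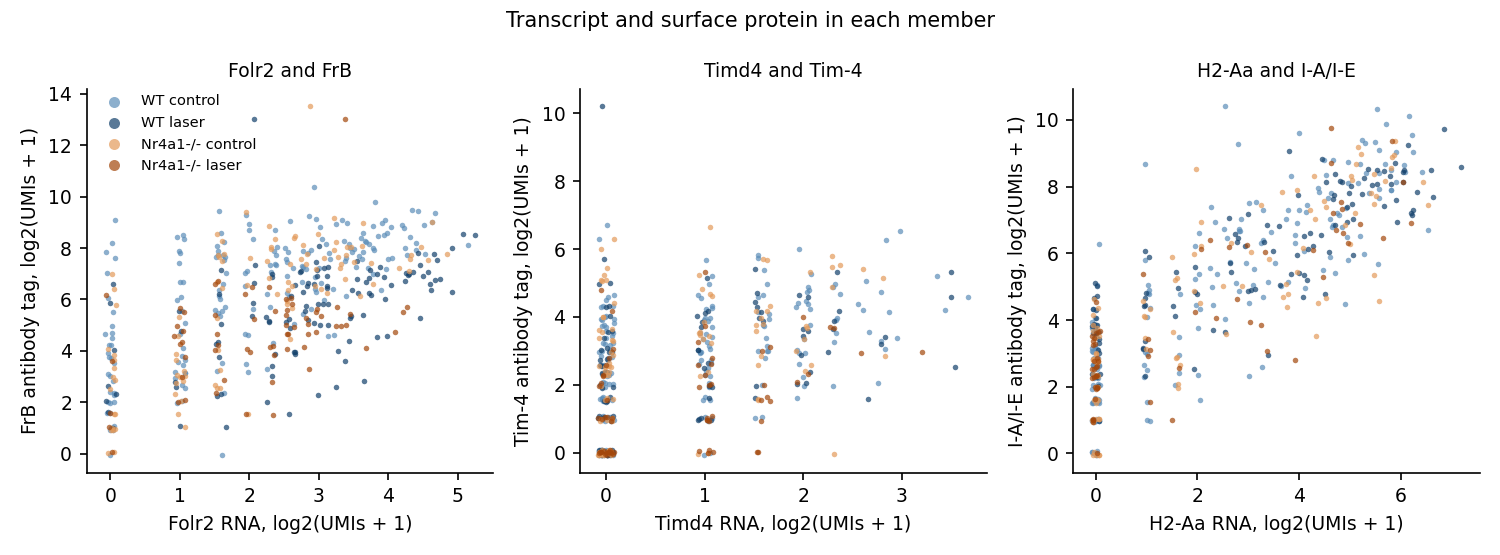
Antibody tag against transcript in each member for Folr2 and FrB, Timd4 and Tim-4, and H2-Aa and I-A/I-E, both as log2(UMIs + 1), coloured by library and with a small random shift to separate points. The H2-Aa points climb together (rho 0.79 to 0.86), whereas Tim-4 tags spread widely at each Timd4 count (rho 0.40 to 0.54).

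Surface proteins were tested between the classes, since the gate used transcripts and not tags. Tag counts were summed per library and class and compared by edgeR's quasi-likelihood test with library as a block, over 81 tags apart from those of the gate. Of these 2 were higher in members than in Lyve1-negative macrophages (2.47%) and 5 lower (6.17%) at an adjusted p under 0.05. Over microglia 6 were higher (7.41%) and 5 lower (6.17%). The balance depended on the scaling, since without TMM factors 1 was higher and 36 lower over Lyve1-negative macrophages and 2 and 45 over microglia.

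Tim-4 stood out in both comparisons. Members held 7288, 14226, 17716 and 4912 Tim-4 tags per 1e6 tags, Lyve1-negative macrophages 2248, 705, 3692 and 371 and microglia 974, 376, 1329 and 606. The difference on the log2 scale was 3.93 (SE 0.44, adjusted p = 0.000533) over Lyve1-negative macrophages and 4.94 (SE 0.47, adjusted p = 8.52e-05) over microglia by edgeR, higher in 4 of 4 libraries, and Tim-4 was called in 11 of 11 settings against each class. The median member held 7, 3, 6 and 1.5 Tim-4 tags, against 0 in both other classes. C5AR_CD88, the receptor for complement C5a, was higher by 1.12 (SE 0.29, adjusted p = 0.0433) and 1.70 (SE 0.29, adjusted p = 0.00287) in the same edgeR fit, and was called in 5 and 8 of 11 settings. By tags per 1e6 it was higher in 2 and 3 of 4 libraries.

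CD169 (Siglec-1), a sialic acid receptor of resident macrophages, was higher over microglia by 2.76 (SE 0.35, adjusted p = 0.000408) in the edgeR fit. CD301b by 1.18 (SE 0.31, adjusted p = 0.0361), CD107a by 1.24 (SE 0.36, adjusted p = 0.0493) and CD317 by 1.00 (SE 0.29, adjusted p = 0.0493) were also higher over microglia by edgeR. By tags per 1e6 CD169 was higher in 4, CD107a in 3 and CD301b and CD317 in 2 of 4 libraries. On the same scale each tag called lower was lower in 4 of 4 libraries. This scale has no TMM factors, without which 36 and 45 of the 81 tags were called lower. The agreement among the lower tags is therefore a description. CX3CR1, the fractalkine receptor, differed by -1.14 (SE 0.30, adjusted p = 0.0433) over Lyve1-negative macrophages and -3.07 (SE 0.32, adjusted p = 0.000127) over microglia in the edgeR fit. CD11c, an integrin alpha chain, differed by -1.41 (SE 0.31, adjusted p = 0.0286) and -1.42 (SE 0.31, adjusted p = 0.012), and CD61, the integrin beta 3 chain, by -1.15 (SE 0.28, adjusted p = 0.0375) and -2.60 (SE 0.29, adjusted p = 0.000167) by edgeR. CD11a by -2.12 (SE 0.50, adjusted p = 0.0375) and the endotoxin co-receptor CD14 by -0.91 (SE 0.24, adjusted p = 0.0433) were lower over Lyve1-negative macrophages by edgeR. CD170 by -1.14 (SE 0.19, adjusted p = 0.00287) and CD54 by -1.23 (SE 0.32, adjusted p = 0.0361) were lower over microglia by edgeR. Whether the 2 contrasts differ was not tested. FrB and CD163 tags, whose transcripts chose the cells, were higher by 4.0 and 3.06 over Lyve1-negative macrophages as a description.

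Few cells could carry much of a tag sum. One WT control member held 125072 CD86 tags, 40.5% of all tags of the members in that library. In WT laser 1 member held 1158 Tim-4 tags, against a median of 3. Without cells over 10 times the median tag total of their class and library, a setting chosen after seeing the data, 5 tags were higher and 10 lower over Lyve1-negative macrophages, and 11 and 11 over microglia. In that setting CD169 was also higher over Lyve1-negative macrophages, by 1.33 (adjusted p = 0.00984 by edgeR), and I-A/I-E was higher over microglia, by 1.94 (adjusted p = 0.00199 by edgeR). Tim-4 was then higher by 3.64 over Lyve1-negative macrophages and 4.76 over microglia. FrB and CD163, as a description, were higher by 3.14 and 2.84 over Lyve1-negative macrophages. Leaving out any 1 of the 4 libraries left 1 higher tag each time and 0 to 2 lower tags over Lyve1-negative macrophages, and 2 to 6 higher and 3 to 7 lower tags over microglia. Tag levels were not compared between conditions, since some tags differed widely between whole libraries. CD64, for example, made up 115 per 1e6 tags of all WT control cells and 2711 to 5074 in the other libraries.

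**Figure D4:**
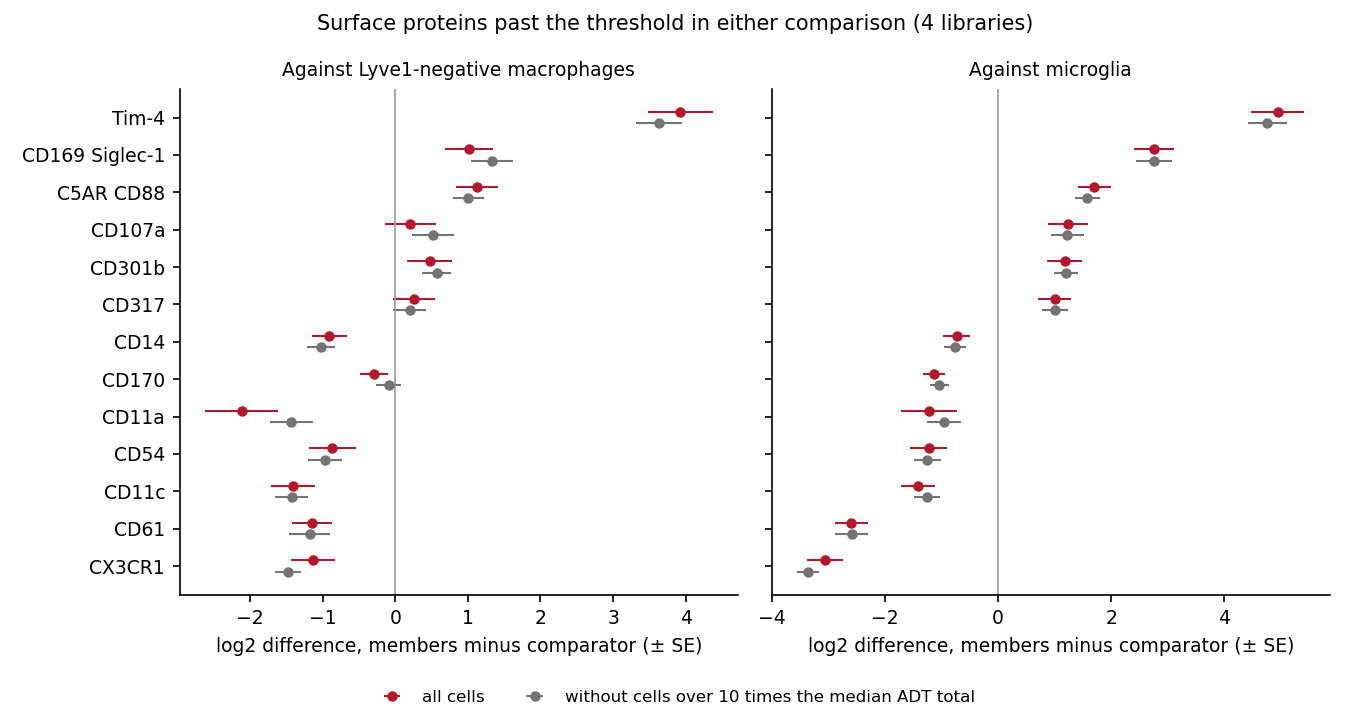
Log2 difference of the 13 antibody tags past the threshold in either comparison, members minus Lyve1-negative macrophages and members minus microglia, with all cells and without cells over 10 times the median tag total. Points are estimates of the edgeR fit on 4 libraries and bars their standard errors, derived from the F statistic of the test. Tim-4 stands at 3.93 and 4.94, and CX3CR1 at -1.14 and -3.07.

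Laser was compared with control within each genotype. Genes that reached 20 UMIs in the higher library were compared and called at a 2-fold difference. In WT 140 of 7376 genes were higher (1.9%) and 243 lower (3.29%). In Nr4a1-/- 99 of 4712 were higher (2.1%) and 381 lower (8.09%). Only 14 of 4693 genes compared in both pairs were higher in both (0.298%), and 14 were lower in both (0.298%). Under TMM scaling these counts were 15 and 10. The median log2 ratio of all compared genes was -0.07 in WT and -0.14 in Nr4a1-/-.

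Ccl8 was the clearest gene in both pairs. It encodes a monocyte-attracting chemokine of resident macrophages (chr11:82115185-82116799) and its promoter is printed above. Its level was 492, 1842, 134 and 1325 CPM in members and 25.7, 319, 21.8 and 255 CPM in Lyve1-negative macrophages. The ratio of laser to control was 3.74 (3.45 to 4.06) in WT and 9.9 (8.06 to 12.2) in Nr4a1-/-. UMIs came from 77, 77, 21 and 39 members, and no member held more than 21.7% of them in any library. After thinning it was detected in 27.1, 55.3, 13.7 and 43.5% of members and 0 to 2.99% of B cells. The higher level was thus also a higher share of cells.

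Saa3, an acute-phase serum amyloid gene (chr7:46711998-46715700), was close to absent in controls and present after laser, at 3.69, 173, 1.16 and 178 CPM in 1, 13, 1 and 6 members. The ratios were 47 (21.2 to 129) and 153 (26.5 to 6128), with 6, 223, 1 and 64 UMIs behind the 4 values. Lyve1-negative macrophages had 0, 11.2, 0 and 2.57 CPM and microglia 0.384, 17.6, 0 and 35.7 CPM. Ccl8 and Saa3 were called in all 7 alternative settings tried for laser.

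Of the complement list 2 of 12 genes were higher after laser in WT (C3 and Cfb) and 1 of 10 in Nr4a1-/- (Cfb). Of the lipid and lysosome list 3 of 15 were higher in WT (Fabp5, Gpnmb and Lgals3) and 4 of 14 in Nr4a1-/- (the same genes and Lpl). These counts stand beside 1.9% of all genes compared in WT and 2.1% in Nr4a1-/-. Lgals3 (chr14:47367751-47386160) stood at 207, 489, 144 and 756 CPM, with ratios of 2.37 (2.07 to 2.71) and 5.24 (4.22 to 6.53), and was called in 6 of 7 settings. With at least 2 Lyve1 UMIs required of a member its WT ratio was 2.00, just under the limit of 2-fold. Cfb, the alternative pathway factor B gene, stood at 49.8, 116, 25.6 and 91.7 CPM, with ratios of 2.33 (1.76 to 3.09) and 3.58 (2.03 to 6.45), and was called in 4 of 7 settings. C6, a gene of the terminal complement pathway, stood at 25.2, 76.2, 10.5 and 55.6 CPM, with ratios of 3.02 (2.08 to 4.46) and 5.3 (2.31 to 13.2), and it was at 0 to 3.68 CPM in Lyve1-negative macrophages. The call of C6 held in 2 of 7 settings. Pltp was below the 2-fold limit in both pairs, with ratios of 1.81 (1.67 to 1.97) and 1.79 (1.55 to 2.05).

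Fabp5, a fatty acid binding protein gene, had 24.6, 128, 26.8 and 403 CPM and ratios of 5.18 (3.65 to 7.52) and 15 (9.65 to 24.5). Lyve1-negative macrophages held 248, 1521, 92.5 and 1672 CPM of it, more than the members held in each library. The call of Fabp5 in members was lost with thinned members and without mixed-lineage cells. After thinning it was detected in 1.56, 6.14, 5.88 and 14.5% of members against 1.42, 5.07, 1.60 and 5.0% of B cells, so its share in WT laser (2.50 to 12.2) cannot be told from free RNA. The non-coding Gm17749 (chr9:65521106-65529806) had 44.9, 157, 54.7 and 139 CPM, whereas it was near level in Lyve1-negative macrophages at 51.5, 53.4, 40.8 and 61.7 CPM. Mmp19, Traf1 and Thbs1 were the other named genes called in both pairs, with 1 member holding 60.7% of the Thbs1 UMIs in WT laser. In Nr4a1-/- Spp1 and Gpnmb rested on single cells. Spp1, which encodes osteopontin, stood at 9.84, 91.8, 33.7 and 2181 CPM, and 1 member held 98.3% of its UMIs in Nr4a1-/- laser, whereas 33 members carried it in WT laser. For Gpnmb 1 member held 85.7% and 89.1% of the UMIs in the 2 Nr4a1-/- libraries. After thinning Spp1 was detected in 1.04, 11.4, 0.98 and 9.68% of members against 0.686 to 7.46% of B cells.

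Among the genes lower after laser, Prkg1, which encodes cGMP-dependent protein kinase, stood at 144, 52.1, 74.5 and 27.8 CPM with ratios of 0.362 (0.272 to 0.477) and 0.373 (0.171 to 0.731). The same order was seen in Lyve1-negative macrophages, at 189, 22.7, 141 and 12.9 CPM. Hspa1b, an inducible HSP70 gene, stood at 51.7, 20.2, 411 and 25 CPM. Alkbh1 (22.1, 5.44, 29.1 and 11.1 CPM), Ipmk (65.2, 26.4, 45.4 and 19.4 CPM) and Btg3 (36.3, 16.3, 33.7 and 13.9 CPM) were lower in both pairs at low counts, as were Gpr84, Znrf3, Dhx30, Gm12703 and Cdc14b. The gate gene Lyve1 had a ratio of laser to control of 0.60 (0.547 to 0.656) in WT and 0.798 (0.691 to 0.919) in Nr4a1-/-, which is given as a description.

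**Figure D5:**
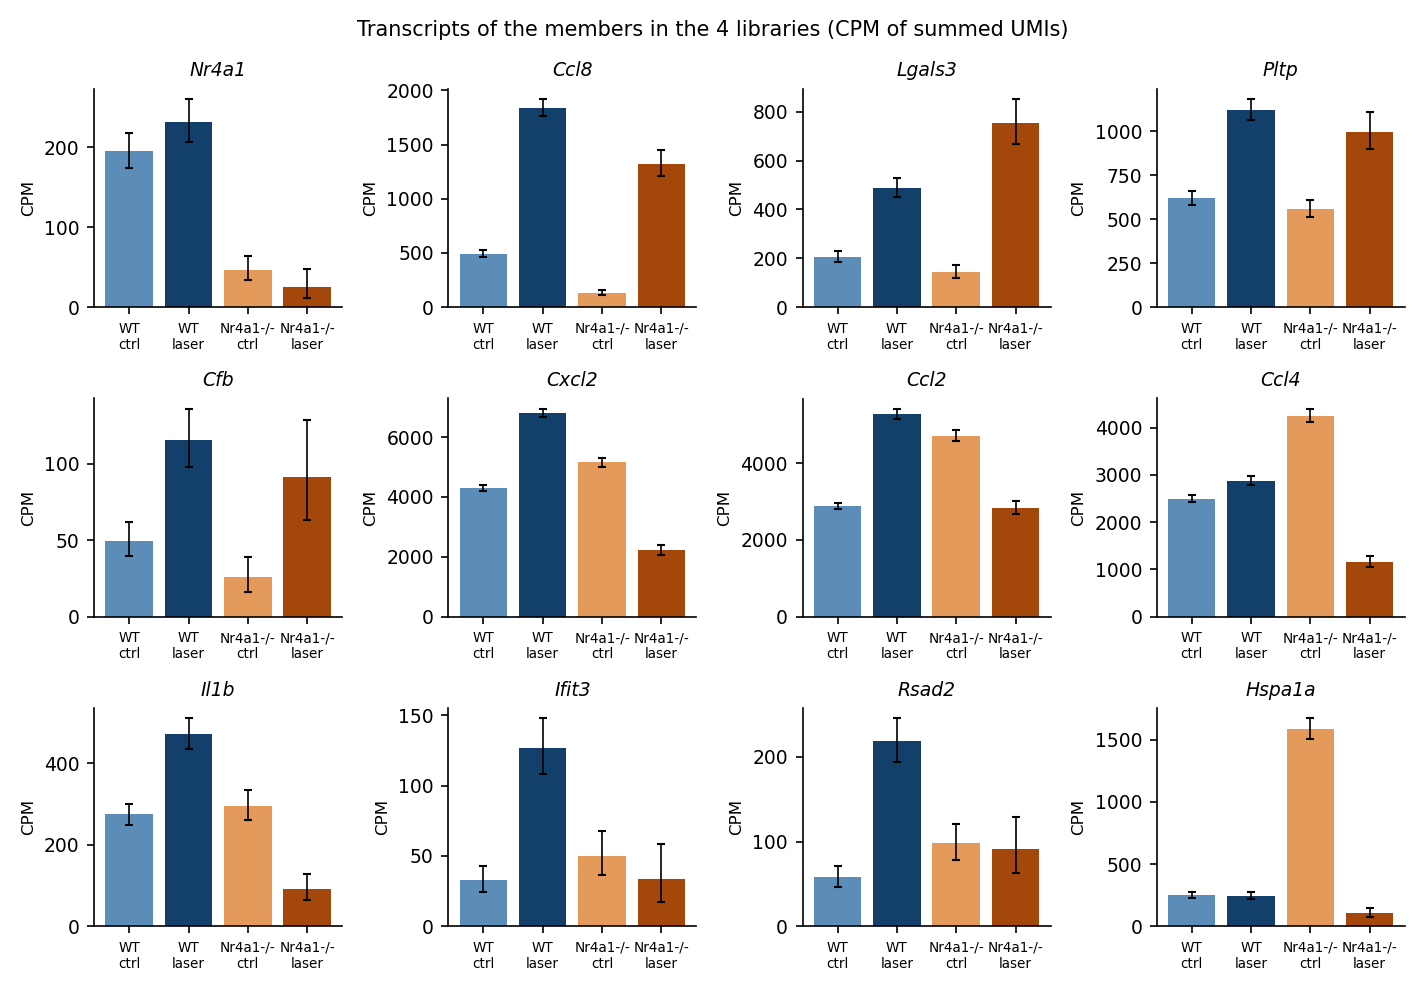
Levels of 12 genes in the members of the 4 libraries, as bars in CPM from 0 with exact 95% intervals for counting error. Ccl8 is at 492 CPM in WT control and 1842 in WT laser and at 134 in Nr4a1-/- control and 1325 in Nr4a1-/- laser, whereas Hspa1a stands out in Nr4a1-/- control alone.

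Some interferon-stimulated genes were higher after laser in WT. Of 15 compared, 6 were called higher (Ifit1, Ifit2, Ifit3, Irf7, Isg15 and Rsad2) with a list median of 0.54 on the log2 scale. In Nr4a1-/- 1 was higher and 1 lower (Ifit2), with a median of -0.09. Over all genes compared 1.9% were higher after laser in WT, and 2.1% higher and 8.09% lower in Nr4a1-/-. Rsad2, which encodes the antiviral protein viperin, stood at 57.8, 219, 97.7 and 91.7 CPM, with ratios of 3.78 (2.98 to 4.83) in WT and 0.938 (0.607 to 1.42) in Nr4a1-/-. Ifit3 stood at 32.6, 127, 50.038 and 33.3 CPM and the regulator Irf7 at 48.6, 121, 58.2 and 58.3 CPM. WT laser was the highest library for Ifit3 in microglia too, at 34.6, 103, 2.61 and 35.7 CPM, and Lyve1-negative macrophages had 24.5, 88.2, 95.2 and 30.9 CPM.

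Cxcl1 and Il10 were called higher after laser in WT and lower in Nr4a1-/-, and Ccl8 was higher in both. Over all genes compared, 1.9% were higher and 3.29% lower in WT, and 2.1% higher and 8.09% lower in Nr4a1-/-. Of 16 chemokine genes 3 were higher after laser in WT (Ccl8, Cxcl1 and Cxcl13), whereas of 15 compared in Nr4a1-/- 1 was higher (Ccl8) and 5 were lower (Ccl3, Ccl4, Cxcl1, Cxcl2 and Cxcl3), with medians of 0.24 and -0.73. Cxcl2, a neutrophil attractant, stood at 4308, 6803, 5159 and 2219.6 CPM, with ratios of 1.58 (1.53 to 1.63) and 0.43 (0.399 to 0.464). Ccl4 stood at 2494, 2873, 4256 and 1158 CPM, with ratios of 1.15 (1.1 to 1.21) and 0.272 (0.245 to 0.301). Ccl2, the main ligand of CCR2, stood at 2883, 5296, 4719 and 2847 CPM, and its ratios of 1.84 (1.77 to 1.91) and 0.603 (0.563 to 0.646) both stayed within 2-fold. Of 12 cytokine genes 2 were higher in WT (Il10 and Il1rn) and 5 were lower in Nr4a1-/- (Il10, Il18, Il1a, Il1b and Osm). Il1b stood at 274, 471, 296 and 91.7 CPM, and after thinning it was detected in 12.5, 24.6, 16.7 and 11.3% of members but also in 3.66 to 18.8% of B cells, so its share in Nr4a1-/- laser cannot be told from free RNA. Whether the 2 genotypes differ in their response to laser was not tested.

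Part of the heat shock genes were highest in 1 library. Hspa1a stood at 250.4, 245, 1587 and 103 CPM in members, 77.2, 128, 1020.1 and 102 in Lyve1-negative macrophages and 255, 119, 733 and 92 in microglia, so Nr4a1-/- control was the highest in all 3 classes. Of 12 heat shock chaperone genes 6 were higher in Nr4a1-/- control than in WT control, against 1.35% of all genes compared. In Nr4a1-/- 8 of the 12 were lower after laser, against 8.09% of all genes compared. The list medians were 1.24 and -1.63. In WT 2 of the 12 were lower after laser (Hspa1b and Hspb1), against 3.29%. Nr4a1-/- control is the library with another library number, and its part in these values and in the lower chemokine and cytokine genes of the Nr4a1-/- pair cannot be told apart from laser or genotype. Reads of Hspa1a and Hspa1b, near-identical copies, could be split between them by the counting.

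Genotype was compared within controls and within laser. In controls 92 of 6790 genes were higher in Nr4a1-/- (1.35%) and 269 lower (3.96%), and after laser 55 of 5048 were higher (1.09%) and 380 lower (7.53%). Over both pairs 2 of 4779 genes were higher in each (0.0418%) and 32 were lower in each (0.67%). The median log2 ratio of all compared genes was -0.07 and -0.14, and TMM scaling would shift the ratios of the laser pair by a further -0.11. Of 27 resident macrophage identity genes 0 were called in controls, and after laser 2 were higher (Cd209d and Cd209g). The related receptor gene Nr4a2 stood at 97.8, 94.1, 279 and 108 CPM and was high in Nr4a1-/- control, with a ratio of 2.86 (2.33 to 3.51) there and 1.15 (0.781 to 1.66) after laser, and Nr4a3 stood at 123, 136, 135 and 117 CPM.

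Nr4a1 itself was lower in all 7 settings, and Ctnnd2, Clec4e, Acod1 and the transcript G530011O06Rik, outside the rule for named genes and named after its values were seen, in 6 of 7. Ctnnd2 (chr15:30172593-31029341), which encodes delta-catenin, stood at 65.8, 42, 11.6 and 2.78 CPM, with ratios of 0.177 (0.0824 to 0.338) and 0.0662 (0.00164 to 0.385). Clec4e, the gene of the receptor Mincle, stood at 50.4, 72.3, 5.82 and 16.7 CPM, with ratios of 0.115 (0.0365 to 0.28) and 0.23 (0.0825 to 0.521). Acod1, which makes itaconate in activated macrophages, stood at 41.2, 40.4, 3.49 and 11.1 CPM in 12, 15, 3 and 4 members, with ratios of 0.0847 (0.017 to 0.258) and 0.275 (0.0722 to 0.747). Thinning each member to 2000 UMIs ended the call of each of the other four, and the ratio of Acod1 after laser was then 1.23. Cxcl9, Fn1, Ifitm1, Itgal and Sgms2 rested on few cells, as 1 member held 87.5% of the Cxcl9 UMIs in WT laser and 64.6% of the Fn1 UMIs in WT control. Hist1h1e, Atp8b1 and Eno1 were lower in both pairs at 43.7, 25.7, 15.1 and 8.33, 24, 19.4, 9.31 and 2.78 and 50.4, 48.2, 24.4 and 8.33 CPM. Spp1 and Gpnmb were the 2 genes higher in both pairs, with the single cells described above.

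Within the laser pair a minority of the interferon, chemokine and cytokine genes were lower in the members of Nr4a1-/- eyes, against 7.53% of all genes compared. Of 15 interferon-stimulated genes 5 were lower (Ifit2, Ifit3, Irf7, Rsad2 and Usp18) and 0 higher, with a median of -0.67. Of 15 chemokine genes 5 were lower (Ccl3, Ccl4, Ccl7, Cxcl1 and Cxcl2), with a median of -0.47. Of 12 cytokine genes 5 were lower (Il10, Il18, Il1a, Il1b and Osm), with a median of -0.78. The ratio of Nr4a1-/- to WT was 0.326 (0.303 to 0.351) for Cxcl2, 0.49 (0.45 to 0.533) for Ccl7, 0.195 (0.133 to 0.276) for Il1b and 0.42 (0.283 to 0.603) for Rsad2. The pair sets the library with the lowest median depth of members (5302 UMIs, 66 members) against that with the highest (10909 UMIs, 114 members), and the part of depth in these values was not tested. The count of lower genes ran from 3 to 7 for interferon-stimulated genes, from 3 to 7 for chemokines and from 3 to 6 for cytokines over the 7 alternative settings, with 0 higher genes in each. In controls 2 of 15 interferon-stimulated genes (Ifit1 and Ifit2) and 2 of 15 chemokine genes (Cxcl1 and Cxcl3) were higher in Nr4a1-/-. So were 2 of 12 cytokine genes (Il10 and Il1a), whereas Ccl8 was lower, at a ratio of 0.272 (0.222 to 0.331). Over all genes compared in controls 1.35% were higher and 3.96% lower.

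NR4A1 binds as a monomer to the NBRE, read here as AAAGGTCA on either strand. Of the 32 genes lower in Nr4a1-/- in both pairs 24 had a promoter in the table, and 2 of these held the motif within 250 bases before or 50 after the start (8.33%), against 0.915% of 3826 promoters of the genes compared and 1.46% of all 27025 promoters. The 250 bases before the start of both (RefSeq, GRCm38.p6) are shown with the motif in capitals. Olr1, which encodes an oxidized lipoprotein receptor, is named because it holds the motif and was chosen after its values were seen.
Eno1, chr4:150236458-150236707 (plus strand): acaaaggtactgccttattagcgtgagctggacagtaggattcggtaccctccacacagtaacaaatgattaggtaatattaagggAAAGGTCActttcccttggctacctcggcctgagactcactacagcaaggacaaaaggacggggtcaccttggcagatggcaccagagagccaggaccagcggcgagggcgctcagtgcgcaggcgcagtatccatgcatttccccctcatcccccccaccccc
Olr1, chr6:129507166-129507415 (minus strand): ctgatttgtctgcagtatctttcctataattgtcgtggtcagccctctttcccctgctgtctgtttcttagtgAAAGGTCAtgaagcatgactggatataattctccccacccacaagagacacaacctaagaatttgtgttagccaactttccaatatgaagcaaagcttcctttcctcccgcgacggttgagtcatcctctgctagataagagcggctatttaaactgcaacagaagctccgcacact
The motif began 164 bases before the Eno1 start and 177 bases before the Olr1 start. Both genes were lower at low counts, Olr1 was called in 2 of 7 settings and Eno1 in 5 of 7, and reads of Eno1 could be shared with near-identical copies of this enolase gene. A count of 2 promoters is a description, and binding was not measured.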

How the data were processed

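RNA and ADTs were measured in 4 libraries of sorted posterior eye cells, 1 per condition. Per the labels and the study's methods, the authors ran Cell Ranger 7.0.1 against mm10 and deposited raw UMI counts per cell for 32285 genes and 87 ADTs, with no normalization. The labels name the v2 kit and the methods the v3 kit. ADT samples were matched to conditions by their titles, as their genotype and treatment fields all read the same. No authors' annotation of cells was used here.

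Of 11624 barcodes 11223 were kept, those in which 200 to 5000 genes were detected and mitochondrial UMIs did not exceed 15%. No doublet caller was run, and an alternative left out cells with at least 2 UMIs over the T and NK, B, neutrophil or RPE markers, with 91, 36, 48 and 38 members remaining. The members, gene lists and tests were chosen with earlier results of these data known. Lyve1-negative macrophages had at least 1 UMI each of Csf1r, Mertk and C1qa, 0 of Lyve1 and fewer than 2 microglia transcripts. Microglia had at least 2 of Tmem119, P2ry12 and Sall1 and 0 of Lyve1. B cells, used for the background of free RNA, had at least 2 Cd79a UMIs and 0 of Csf1r and Cd3e.

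UMIs were summed per library and class and scaled to all RNA UMIs of the class (CPM). Ratios between conditions carry exact conditional binomial 95% intervals, shares exact Clopper-Pearson 95% intervals. Both cover counting error only, so precision follows the depth of 359981 to 1625621 RNA UMIs over the members of a library. A count of 0 allows up to 3 counts. ADT sums (4 libraries by 3 classes, 86 of 87 ADTs with at least 50 UMIs) were tested by the quasi-likelihood test of edgeR 4.0.16 after TMM scaling, with the library as a block and p-values adjusted by Benjamini-Hochberg at a threshold of 0.05. The SE of a difference was its absolute log2 value divided by the square root of the edgeR F statistic. DESeq2 1.42.0 was an alternative. The block pairs the classes because they are cells of the same library. Tags of FrB, CD163, CD115, P2Ry12 and CD3 were described only. Scripts were tested on simulated counts.

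Genes named were the gate genes, Nr4a1, up to 15 higher and 10 lower than in Lyve1-negative macrophages (2-fold in all 4 libraries), up to 10 per direction for laser and for genotype (2-fold in both pairs, at least 20 UMIs from at least 5 cells in the higher library), and per list up to 4 genes of the highest mean CPM and any gene called in both pairs. Genes called within a list are named beside their counts, and some genes of the lists are not reported here. Members and B cells were thinned to 2000 UMIs with seed 1 for shares of cells, and cells under 2000 UMIs were left out of these shares. Gene positions are from GENCODE M21 and promoters from RefSeq (GRCm38.p6). The software was R 4.3.3 and Python 3.11.15 with scipy 1.17.1, numpy 2.4.6, pandas 2.3.3 and matplotlib 3.10.9.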

Additional observations from a re-analysis of the deposited data

Results flagged for a closer look

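In 5 genes of the fixed lists the members moved at least 2-fold in one direction in one pair of libraries and at least 2-fold in the other direction in the other pair. With 1 library per condition these differences were not tested, and all of them include the Nr4a1-/- control library, whose other library number cannot be told apart from genotype or treatment. Over all genes 23 such opposite calls were counted, with 4693 genes compared in both laser pairs and 4779 in both genotype pairs. The 23 are calls and the 5 are genes, so the counts are not set against each other.

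Cxcl1, a neutrophil-attracting chemokine gene, stood at 91.0, 281, 367 and 77.8 CPM in WT eyes (control, then laser) and Nr4a1-/- eyes (control, then laser). Its log2 difference between laser and control was higher by 3.86 in WT than in Nr4a1-/-. Its log2 difference between Nr4a1-/- and WT was higher by the same 3.86 in controls than after laser. With 4 values the 2 differences are always equal, here and for the next genes, so they are 1 result. Cxcl1 UMIs came from 13 members in Nr4a1-/- control and 9 in Nr4a1-/- laser, where 28 were counted. Ifit2, an interferon-stimulated gene, stood at 32.6, 84.8, 89.6 and 36.1 CPM, and both of its differences were 2.69. Il10, which encodes an anti-inflammatory cytokine, stood at 44.9, 117, 100.1 and 50.003 CPM, and both of its differences were 2.39, with 18 members carrying it in Nr4a1-/- control and 10 in Nr4a1-/- laser.

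Il1a stood at 94.7, 154, 222 and 50.003 CPM, and its difference between Nr4a1-/- and WT was higher by 2.85 in controls than after laser. Hspa1a stood at 250.4, 245, 1587 and 103 CPM, and this difference was 3.92. Ifit2 UMIs came from 13 members in Nr4a1-/- control and 6 in Nr4a1-/- laser, so single cells weigh on its level.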

How the results depend on the processing

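With at least 2 Lyve1 UMIs required, members made up 4.23%, 2.43% and 3.03% of cells in WT control, WT laser and Nr4a1-/- laser. With cells of at least 2000 UMIs thinned to 2000 before the gate and shallower cells left out, members made up 2.67%, 1.5% and 2.86%. These shares belong to WT control, WT laser and Nr4a1-/- control. The ratio of laser to control in Nr4a1-/- was then 1.14, and that of Nr4a1-/- to WT after laser 2.18. Over Csf1r-positive cells the shares were 14.8%, 6.33%, 14.6% and 9.82%, and the WT ratio was 0.429. Without mixed-lineage cells the control shares were 9.43% and 10.0%, with ratios of laser to control of 0.355 and 0.505. This filter also took lymphocytes, neutrophils and RPE cells out of the total, so these are shares of a smaller total than all kept cells. The WT ratio stayed below 1 in each of these settings.

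Genes higher after laser in both pairs numbered 6 with at least 50 UMIs, 5 with thinned members, 9 with at least 2 Lyve1 UMIs and 9 without the member with most UMIs of a gene, a setting chosen after seeing the data. Genes lower after laser numbered 2 with at least 50 UMIs, 8 with thinned members, 0 of them among the 14, and 25 without mixed-lineage cells, 2 of them among the 14. Genes lower in Nr4a1-/- numbered 16, 6 and 19 in these settings, of which 16, 1 (Nr4a1) and 5 were among the 32, and genes higher in Nr4a1-/- numbered 0 in all 5 of the settings named here. Thinned, 49 genes were higher and 28 lower than in Lyve1-negative macrophages, and 161 and 193 against microglia. The fewer UMIs left fewer genes compared.

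Ratios that turned were, with thinned members, Acod1 after laser (1.23) and C6 (1.05) and Spp1 (0.471) between control genotypes. With at least 2 Lyve1 UMIs, Gpnmb turned for laser in Nr4a1-/- (0.141), and Gpnmb (0.149), Sgms2 (1.04) and Spp1 (0.734) for genotype after laser. Without mixed-lineage cells, C6 (1.40), Ifitm1 (7.01) and Itgal (3.51) turned between control genotypes, Cxcl9 (6.93), Sgms2 (2.64) and Spp1 (0.305) between genotypes after laser, Gpnmb (0.214) and Sgms2 (0.827) for laser in WT, and Gpnmb (0.160) and Spp1 (0.323) for laser in Nr4a1-/-. Without the top member, Gpnmb turned between genotypes in controls (0.897) and after laser (0.569), and Spp1 after laser (0.642). These rest on few cells, and the cause was not tested.

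ADTs over Lyve1-negative macrophages numbered 1 higher and 36 lower without TMM factors, 9 and 11 by DESeq2, 5 and 10 without cells over 10 times the median tag total, and 4 higher with at least 2 Lyve1 UMIs. Over microglia they numbered 2 and 45, 14 and 11, and 11 and 11 in the first 3 of these settings, and CD301b (-0.058) and CD317 (-0.15) turned without TMM factors. With no replicate block (no library block), 1 was higher and 0 lower over Lyve1-negative macrophages. Leaving out each library gave 1 higher and 0 to 2 lower over Lyve1-negative macrophages, and 2 to 6 higher and 3 to 7 lower over microglia. Depth limits Nr4a1-/- laser most, with 66 members.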
